A study of Rattus norvegicus with 6 samples.

Results

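The imprinted Dlk1-Dio3 locus of rat chromosome 6 holds a long array of miRNA genes, and the mature miRNAs of this array were described in small RNA libraries from plasma exosomes. Members were taken by name, as the miRNAs whose hairpin number belongs to the array. The rule named 88 of the 763 mature rat miRNAs in the deposited table, of which 71 had at least 1 count and 17 had none. In all, 598 miRNAs of the series had at least 1 count. The names were checked against RefSeq (assembly GRCr8), where the 71 members come from 45 hairpins and all 45 lie between Dlk1 and Dio3. The hairpins of the members span chr6:134298084-134579838, with 44 on the plus strand and 1, Mir299b, on the minus strand.

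Imprinted genes are expressed from the copy inherited from a single parent. In this locus the protein-coding genes Dlk1, Rtl1 and Dio3 are expressed from the paternal copy, and the noncoding RNAs, among them Meg3, Rian, Mirg and the antisense transcript of Rtl1, from the maternal copy, with the miRNAs cut from these long maternal transcripts. The miRNAs are known for expression in brain, in placenta and in developing or regenerating muscle, and a miRNA acts by pairing its seed, bases 2 to 8 from the 5′ end, with target transcripts. Exosomes are small membrane vesicles that cells release into blood with RNA inside.

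The rats were male Sprague-Dawley animals of 7 to 8 weeks, with no genetic change in either group. RIPC-EXO were exosomes from the plasma of rats that had remote ischemic pre-conditioning (RIPC), which was 4 cycles of 5 min ischemia and 5 min reperfusion of both hind limbs, made by rubber bands under anesthesia. Blood was drawn 48 h after the procedure, and Control-EXO came from rats without RIPC. There were 3 libraries in each group, and whether a library held the plasma of a single rat or of several was not given in the sources used here, so p-values measure the spread between these libraries.

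The members were sorted by place in the locus. The Meg3 side held 10 members, and there the miR-770 hairpin lies within Meg3 itself. The 5 hairpins of the Rtl1 antisense group (8 members) all lie within the span of Rtl1. The Rian side (3 members) holds miR-341 and miR-370. The remaining 50 members belong to the miR-379/410 cluster, whose hairpins lie within the spans of 2 long noncoding RNA genes, LOC102555254 and LOC120103623.

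RefSeq gave the mature sequence of 69 of the 71 members. The 6 below are shown because their levels met the criterion of the comparison, a difference of over 2-fold at an unadjusted p below 0.05, and all 6 were lower in RIPC-EXO. They are in their order along the plus strand, 5′ to 3′, with the seed in capitals. No 2 of these 6 share a seed.
miR-770-3p: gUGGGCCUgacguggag
miR-127-3p: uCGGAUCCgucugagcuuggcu
miR-370-3p: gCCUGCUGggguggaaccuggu
miR-543-3p: aAACAUUCgcggugcacuucu
miR-485-5p: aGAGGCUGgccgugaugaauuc
miR-541-5p: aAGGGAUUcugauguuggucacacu
In GRCr8 the mature miR-770-3p lies at chr6:134298129-134298145, miR-127-3p at chr6:134328510-134328531 and miR-370-3p at chr6:134354538-134354559. Further along, miR-543-3p lies at chr6:134552453-134552473, miR-485-5p at chr6:134571076-134571097 and miR-541-5p at chr6:134578434-134578458.

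The most abundant members are shown next, since they set the summed level of the locus. miR-127-3p, miR-541-5p and miR-370-3p also belong to the 12 most abundant, and miR-381-3p is added as the tested member with the largest positive change.
miR-134-5p: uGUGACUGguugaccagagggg
miR-434-3p: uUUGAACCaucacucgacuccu
miR-379-5p: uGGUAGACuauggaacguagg
miR-382-5p: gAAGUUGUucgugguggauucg
miR-341: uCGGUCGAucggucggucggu
miR-409a-3p: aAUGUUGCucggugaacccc
miR-434-5p: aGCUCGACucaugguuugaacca
miR-299b-3p: uAUGUGGGacgguaaac
miR-299a-3p: uAUGUGGGacgguaaaccgcu
miR-381-3p: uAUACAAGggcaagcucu
Of all 69 sequences, the seed AUGUGGG was shared by miR-299a-3p and miR-299b-3p and the seed AUACAAG by miR-381-3p and miR-539-3p, and no other seed was shared. The 17 bases of miR-299b-3p are the first 17 of the 21 bases of miR-299a-3p, although the hairpins lie on opposite strands. The ratio of miR-299b-3p to miR-299a-3p counts stayed between 1.18 and 1.35 in the 6 libraries, and reads of these miRNAs cannot be told apart where they end before the last bases of miR-299a-3p.

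The libraries held between 5484209 and 7531737 counts, and 404 miRNAs passed edgeR's filter on low counts and were tested. Control-EXO replicate 3 stood apart from the other controls. For 331 of the 404 tested miRNAs (81.9%) its level lay closer to the average of RIPC-EXO than to that of Control-EXO replicates 1 and 2, and for the tested members this was so in 30 of 38 (78.9%). The sums, shares, calls and medians of the members below are therefore also given without it. This library was picked after the values were seen, for lying nearer to RIPC-EXO, so leaving it out favours larger differences and smaller p-values. In plasma, fewer vesicles of a source and less of a miRNA per vesicle cannot be told apart.

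Members of the locus were a small part of the plasma exosome miRNAs. Their share of all counts was 0.107%, 0.132% and 0.119% in Control-EXO replicates 1, 2 and 3, and 0.127%, 0.0701% and 0.120% in RIPC-EXO replicates 1, 2 and 3. The groups overlapped on this scale, with RIPC-EXO replicate 2 lowest of the 6 libraries. As levels normalized by TMM, a scaling that sets the bulk of miRNAs equal between libraries, the members summed to 1313, 1185 and 1277 CPM (counts scaled to a common library size) in Control-EXO and to 1094, 703 and 1165 CPM in RIPC-EXO. The highest RIPC-EXO library lay just under the lowest Control-EXO library. The mean was 1258 ± 66.0 CPM (SD, n = 3) in Control-EXO and 987 ± 249 CPM in RIPC-EXO, a log2 ratio of -0.35. It was -0.16 without RIPC-EXO replicate 2, -0.53 without RIPC-EXO replicate 3, -0.33 without Control-EXO replicate 3 and -0.18 with scaling by library size only. This sum was not tested.

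The sums were also taken by place in the locus, and the differences between the 4 places were not tested. Members of the Meg3 side summed to 22.9, 32.6 and 18.9 CPM in Control-EXO and to 19.2, 7.32 and 12.3 CPM in RIPC-EXO, a log2 ratio of means of -0.94 with RIPC-EXO replicate 1 just above the lowest control. The ratio was -1.09 without Control-EXO replicate 3, -1.29 without RIPC-EXO replicate 1, -0.64 without Control-EXO replicate 2 and -0.785 with scaling by library size only. The Rian side summed to 129, 141 and 50.5 CPM in Control-EXO and to 71.4, 33.7 and 62.0 CPM in RIPC-EXO, also a log2 ratio of -0.94. Here Control-EXO replicate 3 lay among the RIPC-EXO libraries, far under the other controls, and without it the ratio was -1.26. This ratio was -0.65 without Control-EXO replicate 2 and -0.78 with scaling by library size only. For the Rtl1 antisense group the sums were 317, 329 and 411 CPM in Control-EXO and 315, 217 and 223 CPM in RIPC-EXO, a log2 ratio of -0.48. RIPC-EXO replicate 1 lay just under the lowest control in that group, and without Control-EXO replicate 3 the ratio was -0.35. As shares of all counts the groups overlapped there too, with 0.0364% in RIPC-EXO replicate 1 and 0.0258% in Control-EXO replicate 1, and the ratio was -0.31 with scaling by library size only. The miR-379/410 cluster, which held most of the signal, summed to 844, 682 and 796 CPM in Control-EXO and to 688, 445 and 867 CPM in RIPC-EXO. The groups overlapped, and the log2 ratio was -0.22. It was 0.01 without RIPC-EXO replicate 2, -0.49 without RIPC-EXO replicate 3 and -0.18 without Control-EXO replicate 3.

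**Figure D1:**
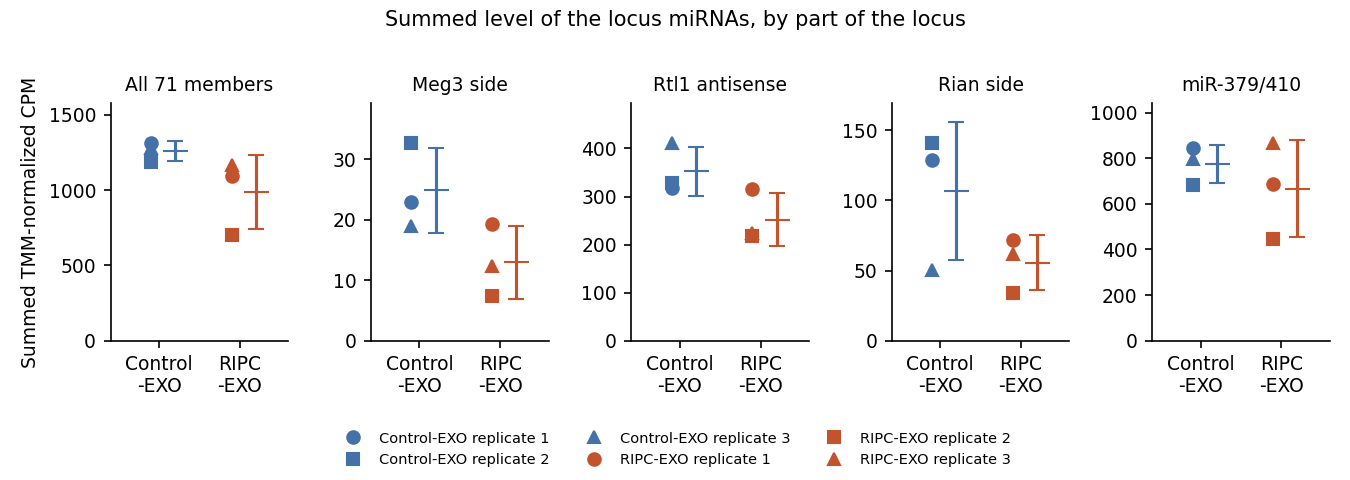
Summed TMM-normalized CPM of the locus miRNAs (y axis, linear from 0) in each of the 6 libraries, for all 71 members and for the 4 parts of the locus; the cross bars are the mean ± SD of 3 libraries. On this scale the groups do not overlap for all members together (1185 CPM against 1165 CPM at the nearest) or for the Rtl1 antisense group. As shares of all counts both of these overlap. The groups overlap on the Meg3 side, on the Rian side and in the miR-379/410 cluster.

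A few miRNAs made up most of this sum. The 12 most abundant members held between 81.2% and 89.4% of the summed level in each library. miR-134-5p, known from neurons as a repressor of the kinase Limk1 that limits dendritic spine size, alone held between 22.8% and 36.8%. It nevertheless ranked only between 93 and 138 among all miRNAs of a library. Its level was 483, 378 and 291 CPM in Control-EXO and 373, 173 and 388 CPM in RIPC-EXO. RIPC-EXO replicate 2 was lowest and the other RIPC-EXO libraries lay within the range of the controls. The log2 change was -0.30 ± 0.47 (SE), with an adjusted p of 0.77 by the quasi-likelihood test of edgeR (Benjamini-Hochberg).

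The question of the comparison was which exosomal miRNAs differ at the late phase of RIPC. Of the 71 members, 38 passed the filter and were tested. By the criterion of over 2-fold and an unadjusted p below 0.05, 6 of the 38 (15.8%) were lower in RIPC-EXO, beside 7.43% of all 404 miRNAs tested, and 0 members were higher at this criterion, beside 1.98% of all. These calls rest on single libraries, since 0 members met the criterion without Control-EXO replicate 2 or without RIPC-EXO replicate 2, and 1 did without Control-EXO replicate 1 or without RIPC-EXO replicate 3. Without RIPC-EXO replicate 1 there were 4, and without Control-EXO replicate 3 there were 21. Of the members that each group alone would carry through the filter, 5 of 23 (21.7%) were lower, beside 8.55% of the 339 such miRNAs, a split added after the values were seen. No member and no other miRNA had an adjusted p under 0.05 in edgeR's quasi-likelihood test, with 6 members and 38 of all 404 at an unadjusted p under 0.05. Adjusted p-values under 0.05 were also 0 among the members with DESeq2, edgeR's exact test and limma-voom. By the simpler criterion that the 3 libraries of each group did not overlap, 8 of the 38 members (21.1%) were lower in RIPC-EXO, beside 7.92% of all miRNAs tested, and 1 (2.63%) was higher, beside 4.95% of all. The median log2 change was -0.32 over the 38 members and -0.05 over all 404, with 16 members above 0 and 22 below. Without Control-EXO replicate 3 these medians were -0.21 over 40 members and 0.01 over 422 miRNAs. With scaling by library size only, which moved the median of all miRNAs from -0.05 to 0.10, the median of the members was -0.11 and only miR-485-5p of the 38 members was lower by the fold and p criterion. On that scale 3.71% of all miRNAs were lower and 4.46% higher, and no member was higher.

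The members that met the criterion came from all 4 groups of hairpins. miR-127-3p, which lies antisense to Rtl1 and is known to repress that transcript, was the most abundant of them. Its level was 148, 134 and 69.1 CPM in Control-EXO and 62.7, 36.5 and 48.0 CPM in RIPC-EXO. All RIPC-EXO libraries lay under all controls, and Control-EXO replicate 3 stood nearest to them. The fitted level was 2.39-fold higher in Control-EXO (log2 change -1.26 ± 0.47, adjusted p = 0.46 by the quasi-likelihood test of edgeR (Benjamini-Hochberg)).

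miR-541-5p, from the far end of the miR-379/410 cluster, was next in abundance. It was measured at 105, 74.4 and 62.7 CPM in Control-EXO and at 42.6, 21.3 and 46.8 CPM in RIPC-EXO. Again the groups did not overlap, and RIPC-EXO replicate 2 was lowest. Control-EXO was 2.18-fold higher (log2 change -1.13 ± 0.47).

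miR-370-3p, of the Rian side, stood at 36.5, 44.2 and 13.4 CPM in Control-EXO and at 15.6, 7.90 and 11.6 CPM in RIPC-EXO. Control-EXO replicate 3 lay among the RIPC-EXO libraries, so the groups overlapped, while the other controls were well above. The log2 change was -1.42 ± 0.56, or 2.67-fold higher in Control-EXO.

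miR-485-5p, known in neurons as a regulator of synapse strength through the vesicle protein SV2A, was measured at 20.8, 16.6 and 8.25 CPM in Control-EXO. In RIPC-EXO it was at 6.03, 2.58 and 6.99 CPM. The groups did not overlap, by a narrow margin between Control-EXO replicate 3 and RIPC-EXO replicate 3. Its log2 change was -1.54 ± 0.59, or 2.91-fold higher in Control-EXO.

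miR-770-3p, cut from a hairpin within Meg3, had levels of 14.6, 19.6 and 8.11 CPM in Control-EXO and of 7.39, 3.16 and 5.67 CPM in RIPC-EXO. The groups did not overlap, and Control-EXO replicate 3 was the nearest control. The log2 change was -1.38 ± 0.56. miR-543-3p, the least abundant of the 6, had 6.28, 3.59 and 2.42 CPM in Control-EXO and 1.11, 1.01 and 1.85 CPM in RIPC-EXO, again without overlap. Its log2 change was -1.61 ± 0.67. It passed the filter only through Control-EXO, the group where it was higher, and it did not meet the criterion without the filter or with DESeq2 or limma-voom. For miR-541-5p, miR-370-3p, miR-485-5p, miR-770-3p and miR-543-3p, as for miR-127-3p, the adjusted p was 0.46 by the quasi-likelihood test of edgeR (Benjamini-Hochberg).

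**Figure D2:**
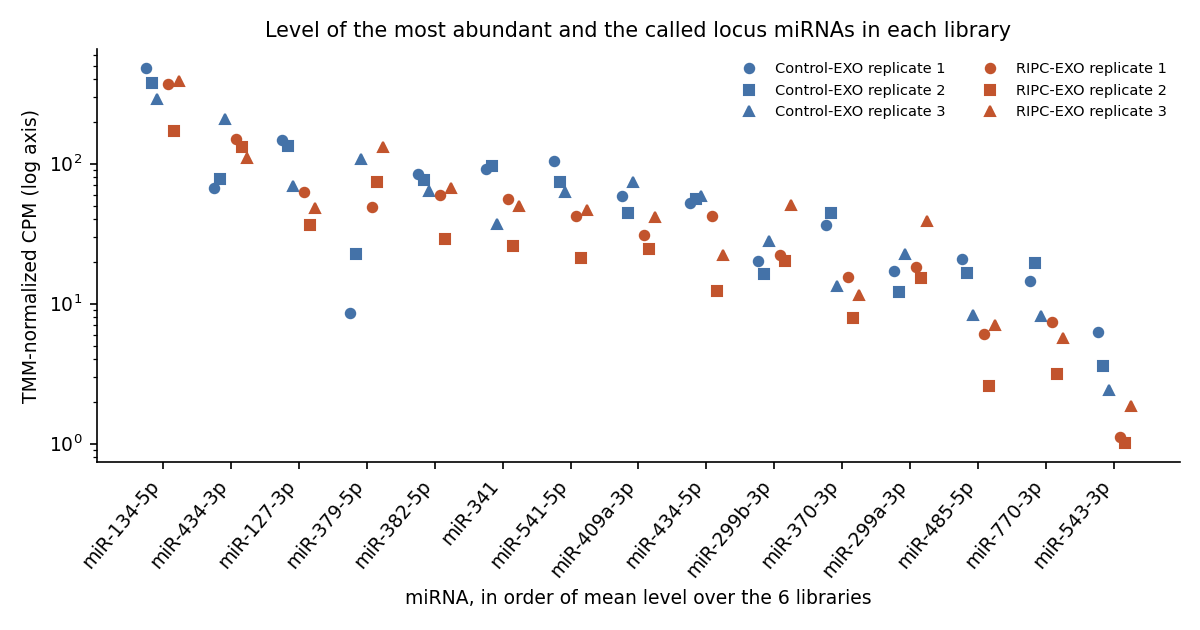
TMM-normalized CPM (y axis, log scale) in each of the 6 libraries for the 12 most abundant members and the others that met the criterion, in order of mean level. Control-EXO replicate 3 (blue triangles) lies nearest to the RIPC-EXO points for miR-127-3p (69.1 CPM) and among them for miR-370-3p (13.4 CPM), and far above the other controls for miR-379-5p (109 CPM).

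The other abundant members did not meet the criterion with all 6 libraries. miR-434-5p, antisense to Rtl1, was at 52.0, 55.6 and 59.2 CPM in Control-EXO and at 42.4, 12.3 and 22.2 CPM in RIPC-EXO, without overlap. The controls were close to each other and the RIPC-EXO libraries were spread widely, and the log2 change was -1.12 ± 0.52. Its other arm, miR-434-3p, had 66.8, 77.8 and 207 CPM in Control-EXO and 150, 131 and 110 CPM in RIPC-EXO. Control-EXO replicate 3 was the highest of the 6 libraries and the other controls were the lowest, which left a log2 change of 0.15 ± 0.52. The adjusted p was 0.47 for miR-434-5p and 0.89 for miR-434-3p by the quasi-likelihood test of edgeR (Benjamini-Hochberg).

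miR-409a-3p was measured at 58.9, 44.8 and 74.4 CPM in Control-EXO and at 31.2, 24.4 and 41.6 CPM in RIPC-EXO. The groups did not overlap, and in this miRNA Control-EXO replicate 3 lay farthest from RIPC-EXO. The log2 change was -0.87 ± 0.44. miR-382-5p had 84.9, 77.1 and 64.3 CPM in Control-EXO and 59.6, 29.1 and 66.8 CPM in RIPC-EXO, and miR-341, a miRNA of rodents from the Rian side, had 92.3, 96.7 and 37.1 CPM and 55.7, 25.8 and 50.3 CPM. The groups overlapped for both, with log2 changes of -0.54 ± 0.45 and -0.78 ± 0.52. miR-433-3p, named after its values were seen as the last of the 8 members without overlap on the lower side, had a log2 change of -0.87 ± 0.44.

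A number of members of the miR-379/410 cluster had fitted changes above 0, none past the criterion. miR-379-5p, from the first hairpin of the cluster, ranged widely, with 8.52, 22.7 and 109 CPM in Control-EXO and 49.1, 73.8 and 131 CPM in RIPC-EXO. Control-EXO replicate 3 was the second highest of the 6 libraries, and the other controls were the lowest. The log2 change was 0.86 ± 0.83. miR-381-3p was the only one of the 38 tested members without overlap on the higher side, at 2.02, 1.54 and 7.68 CPM in Control-EXO and 10.2, 8.18 and 8.31 CPM in RIPC-EXO. Control-EXO replicate 3 came close to the RIPC-EXO libraries. The log2 change of 1.24 ± 0.68 had an adjusted p of 0.50 by the quasi-likelihood test of edgeR (Benjamini-Hochberg). The 18 bases of miR-381-3p differ from the first 18 of miR-300-3p at a single base, and mismatch rules are not given, so its counts are uncertain. miR-300-3p, named after its values were seen, had 439 counts in all against 278 for miR-381-3p. Its groups overlapped, with a log2 change of 0.43 ± 0.65. miR-299b-3p and miR-299a-3p, whose sequences are nested as shown above, had log2 changes of 0.54 ± 0.51 and 0.49 ± 0.52 and overlapping groups, with RIPC-EXO replicate 3 highest at 51.1 and 39.1 CPM. Without that library their changes were -0.059 and -0.073.

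By place in the locus, the median log2 change was -0.98 over the 3 tested members of the Meg3 side, -0.92 over the 8 of the Rtl1 antisense group and -1.10 over the 2 of the Rian side. Over the 25 tested members of the miR-379/410 cluster it was 0.23, with 13 above 0 and a range from -1.61 to 1.24. The 13 tested 5p arms had a median of -0.83 and the 21 tested 3p arms a median of 0.23. Without Control-EXO replicate 3 the medians were -1.59 for 4 members of the Meg3 side, -0.89 for 8 of the Rtl1 antisense group, -1.43 for 2 of the Rian side and 0.54 for 26 of the miR-379/410 cluster, and -0.98 and 0.77 for the 5p and 3p arms. In the fit without that library, miR-540-5p of the Meg3 side passed the filter only through Control-EXO, where it was higher. From the miR-379/410 cluster, miR-410-3p and miR-496-3p passed only through RIPC-EXO, and their remaining controls were at 0 counts. All of these were named after their values were seen. The medians are descriptions of members that share libraries, and the differences between them were not tested.

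**Figure D3:**
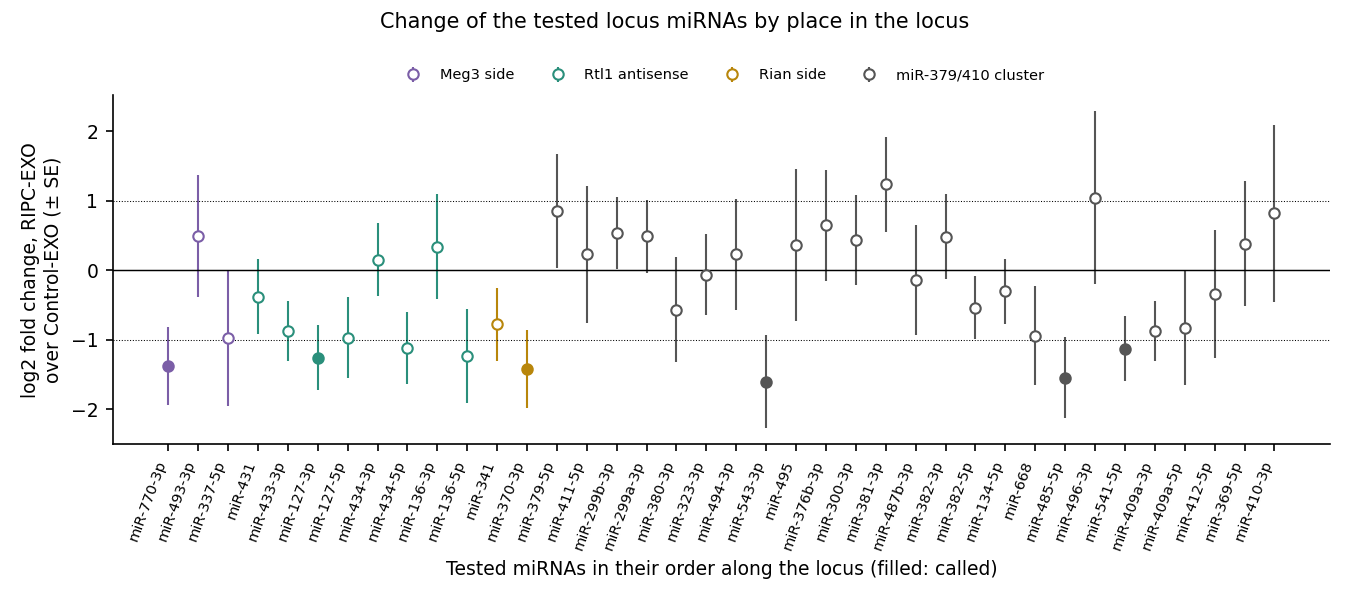
Log2 fold change of RIPC-EXO over Control-EXO with its SE (y axis) for the 38 tested members in their order along the locus, with filled points for the 6 that met the criterion. Values on the Meg3, Rtl1 antisense and Rian sides lie mostly under 0 and those of the miR-379/410 cluster on both sides, from -1.61 to 1.24.

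A hairpin gives a 5p and a 3p miRNA, and the share of its reads on the 5p arm compares the arms within a library. In 5 hairpins both arms were tested. For miR-434 the 5p share was 43.8%, 41.6% and 22.2% in Control-EXO and 22.0%, 8.60% and 16.8% in RIPC-EXO. The groups were only just apart, since the Wilson 95% interval of Control-EXO replicate 3 (20.4% to 24.1%) overlapped that of RIPC-EXO replicate 1 (20.0% to 24.1%). The means were 35.9% ± 11.9 (SD, n = 3) and 15.8% ± 6.74, a difference of -20.1 percentage points that was -26.9 without Control-EXO replicate 3. For miR-136 the 5p share was 62.8%, 38.5% and 5.94% in Control-EXO and 9.47%, 5.65% and 9.32% in RIPC-EXO, where the first value rests on 43 reads (Wilson 95% interval 47.9% to 75.6%). Control-EXO replicate 3 lay with the RIPC-EXO libraries and the other controls far above them, so that the difference of means of -27.6 percentage points was -42.5 without it. Without Control-EXO replicate 1 that difference was -14.1. With all 6 libraries the arms of miR-136 stood on opposite sides of 0, with log2 changes of -1.24 ± 0.68 for miR-136-5p and 0.34 ± 0.76 for miR-136-3p. They were on the same side, at -1.15 and -0.12, without Control-EXO replicate 1.

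The 5p arm of miR-382 held 95.7%, 90.2% and 76.9% of its reads in Control-EXO and 79.1%, 62.9% and 85.6% in RIPC-EXO, and the groups overlapped. Log2 changes were -0.54 ± 0.45 for miR-382-5p and 0.48 ± 0.61 for miR-382-3p. In miR-127 the 5p arm was the minor one at 10.2%, 15.1% and 7.95% in Control-EXO and 13.6%, 17.0% and 11.9% in RIPC-EXO, and both arms had negative changes, -0.97 ± 0.58 for miR-127-5p beside the -1.26 of miR-127-3p. In miR-409a the 5p arm held between 1.16% and 5.24% in the 6 libraries, with means of 2.98% and 2.86%, and miR-409a-5p changed by -0.83 ± 0.82. Thus the share of the 5p arm was lower on average in RIPC-EXO for miR-434, miR-136 and miR-382, higher for miR-127 and almost equal for miR-409a. The difference of means was -11.8 percentage points for miR-382, and from -17.1 (without Control-EXO replicate 3) to -5.26 (without RIPC-EXO replicate 2) with a library left out. It was 3.08 for miR-127, and from 1.52 (without Control-EXO replicate 3) to 5.08 (without Control-EXO replicate 2). For miR-409a it was -0.12, and from -1.31 (without RIPC-EXO replicate 1) to 0.73 (without RIPC-EXO replicate 2), with -0.58 without Control-EXO replicate 3. Shares were given no test, and intervals cover counting error only.

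**Figure D4:**
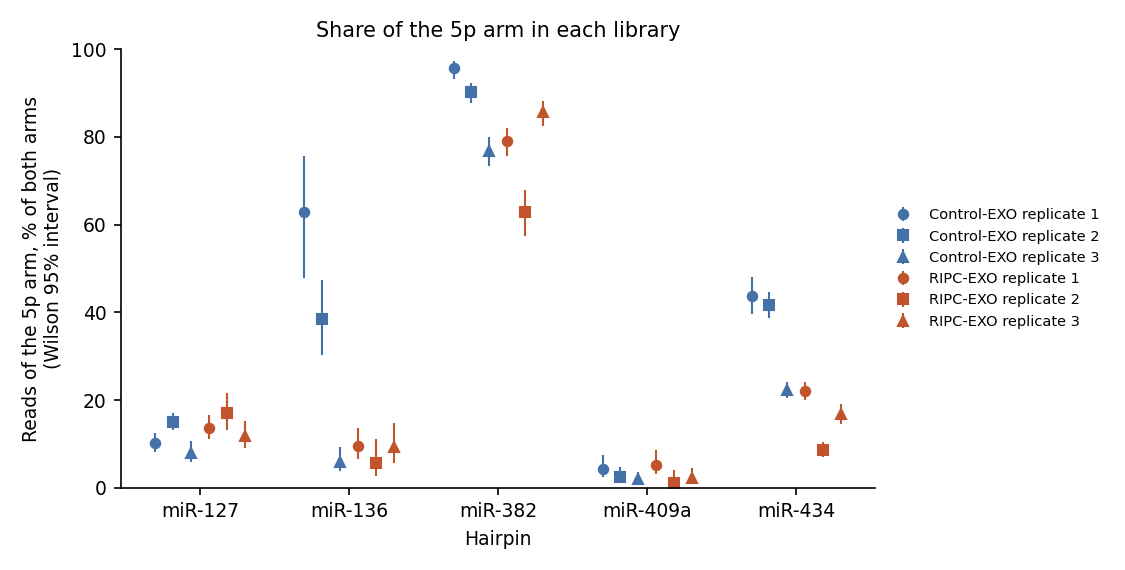
Share of reads on the 5p arm (y axis, % of the reads of both arms) in each library for the 5 hairpins with both arms tested, with Wilson 95% intervals of the counts. For miR-434 and miR-136, Control-EXO replicates 1 and 2 (41.6% and 38.5% or more) lie above all other libraries, and Control-EXO replicate 3 (22.2% and 5.94%) lies with RIPC-EXO.

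Leaving out Control-EXO replicate 3 changed the number of calls more than leaving out any other library did. Since that library was picked in these same data for lying nearer to RIPC-EXO, leaving it out favours calls. The p-values of the fit without it are given as a description only. In that fit the table had 422 tested miRNAs, of which 40 were members. By the fold and p criterion 11 members (27.5%) were lower in RIPC-EXO, beside 19.4% of all, and 10 (25%) were higher, beside 23.7% of all. Of the lower members 2, and of the higher members 4, passed the filter only through the group where they were higher. Among members that each group alone would carry through it, 9 of 25 (36%) were lower, beside 22.3% of the 349 such miRNAs. On the higher side 6 (24%) were called, beside 21.8% of the same miRNAs. An adjusted p under 0.05 was reached by 14 members (35%), beside 31.3% of all. Of these 14, miR-540-5p passed the filter only through Control-EXO and miR-410-3p, miR-411-5p and miR-496-3p only through RIPC-EXO, the group where each was higher. Among the members that each group alone would carry through the filter it was 10 of 25 (40%), beside 33% of the 349 such miRNAs. Members of the locus thus gained calls in both directions, as did the table as a whole. By the quasi-likelihood test of edgeR (Benjamini-Hochberg) on these 5 libraries, miR-370-3p (log2 change -1.77, adjusted p = 0.012), miR-127-3p (-1.51, 0.016), miR-485-5p (-1.83, 0.019), miR-770-3p (-1.64, 0.027), miR-127-5p (-1.35, 0.041) and miR-541-5p (-1.27, 0.046) were lower in RIPC-EXO. miR-543-3p had an adjusted p of 0.060 in that fit. miR-434-5p, miR-341 and miR-136-5p, which did not meet the fold and p criterion with all 6 libraries, met it in that fit with log2 changes of -1.06, -1.09 and -1.55, and so did miR-382-3p with 1.27. Their adjusted p-values in edgeR were between 0.068 and 0.11. miR-379-5p (2.44, 0.0090), miR-381-3p (2.34, 0.014) and miR-136-3p (1.71, 0.030) were higher by the same test. miR-494-3p (1.92, 0.029), named after its values were seen, was also higher in edgeR's fit. No value is given for miR-540-5p and miR-411-5p, nor a fitted fold for miR-410-3p and miR-496-3p, whose remaining controls were at 0 counts. These 4 were likewise named after their values were seen. miR-410-3p had 0, 0 and 25 counts in Control-EXO and 25, 11 and 14 counts in RIPC-EXO. miR-496-3p had 0, 0 and 20 counts in Control-EXO and 22, 10 and 15 counts in RIPC-EXO. With all 6 libraries none of these had an adjusted p under 0.05. In all 16 tested members with a log2 change above 0 in the fit of 6 libraries, Control-EXO replicate 3 was higher than both other controls. The same held in 6 of the 22 members below 0 and in 181 of all 404 tested miRNAs. It was not counted over all miRNAs above 0.

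Control-EXO replicate 3 also differed in how many members it held. Members with at least 1 count numbered 44, 50 and 61 in Control-EXO and 62, 59 and 60 in RIPC-EXO. Over the whole table the numbers were 471, 494 and 530 in Control-EXO and 541, 543 and 544 in RIPC-EXO, so the members followed the table. A count in all 6 libraries was found for 40 members, a count in RIPC-EXO alone for 6 and in Control-EXO alone for 6. The 33 members that did not pass the filter had between 1 and 72 counts in all 6 libraries together. Among them were miR-376c-3p, miR-377-3p, miR-154-5p, miR-329-3p and miR-758-3p of the miR-379/410 cluster, and miR-665 and miR-540-3p of the Meg3 side, named as examples after their values were seen. A floor of 3 counts corresponded to between 0.369 and 0.672 CPM on the TMM scale. These members were not tested with all 6 libraries. miR-376a-3p differs from miR-376b-3p at 3 base edits and from miR-376c-3p at 4, so the counts of these miRNAs are uncertain.

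Changes of the members went with base composition. The 6 members that met the criterion had between 44.0% and 70.6% G and C in the mature sequence (median 56.8%), and the 16 tested members above 0 had between 36.4% and 52.4% (median 44.9%). Across the 36 tested members with a sequence, the log2 change and the share of G and C had a Spearman rho of -0.59. Across all 364 tested miRNAs with a sequence it was -0.62. The tested members with at least 50% G and C numbered 17, with a median change of -0.78 and 3 above 0, and those with less numbered 19, with a median of 0.34 and 13 above 0. In the whole table the medians were -0.56 over 175 miRNAs and 0.45 over 189. The same relation was seen within the controls, where the difference of Control-EXO replicate 3 from the other controls had a rho of -0.75 with G and C over the 36 members and of -0.56 over the 364 miRNAs. For the log2 change without Control-EXO replicate 3, rho was -0.67 over 38 members and -0.63 over 381 miRNAs. All points come from the same 6 libraries. The part of base composition in the results on the locus was not tested.

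**Figure D5:**
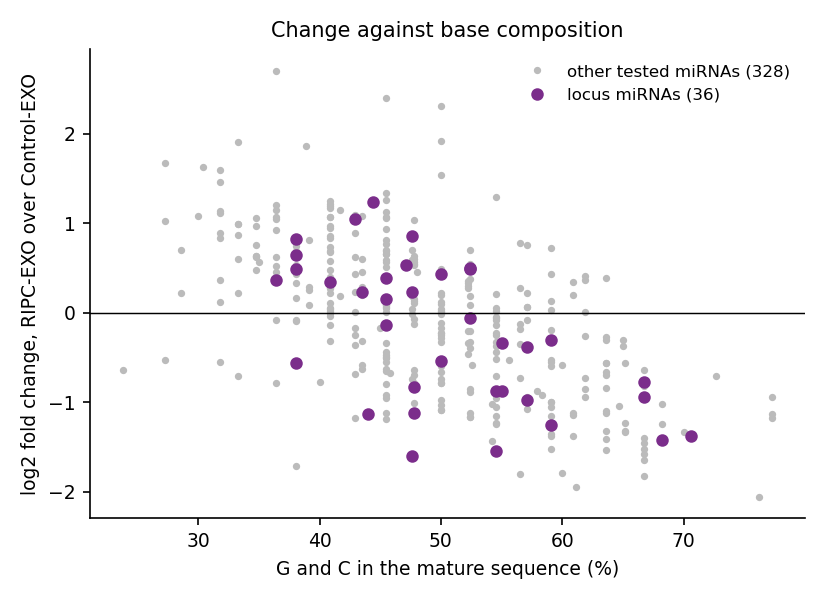
Log2 fold change of RIPC-EXO over Control-EXO (y axis) against the share of G and C in the mature sequence (x axis, %) for the 36 tested members with a sequence (purple) and the other 328 tested miRNAs with a sequence (grey). Members follow the slope of the other miRNAs, with positive changes at 36.4% to 52.4% and negative ones up to 70.6%.

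Plasma exosomes come from many cell types, and the levels of miRNAs typical of these are given beside the members. Of 10 miRNAs typical of brain, 9 had a count and miR-153-3p had none. miR-124-3p and miR-137-3p stayed under 0.5 CPM in every library, whereas miR-218a-5p was between 845 and 1146 CPM, miR-138-5p between 37.1 and 113 CPM, miR-129-5p between 35.6 and 182 CPM and miR-9a-5p between 20.8 and 61.7 CPM. The list summed to between 12898 and 46930 CPM in Control-EXO and between 13488 and 29451 CPM in RIPC-EXO, mainly from miR-128-3p, which other tissues also express, and none of its members met the criterion. All 7 miRNAs of striated muscle had a count, and they summed to between 2151 and 9821 CPM in Control-EXO and between 1805 and 5972 CPM in RIPC-EXO, with none past the criterion. For red cells (4 of 4 with a count) the sums were between 69280 and 198090 CPM in Control-EXO and between 44540 and 74966 CPM in RIPC-EXO. That sum was mainly miR-486, with means of 116720 CPM in Control-EXO and 55507 CPM in RIPC-EXO, while the other 3 had fitted changes above 0, with miR-144-3p (log2 change 1.07) and miR-144-5p (1.63) higher by the fold and p criterion. For endothelium (2 of 2) they were between 4723 and 16773 CPM in Control-EXO and between 20587 and 30334 CPM in RIPC-EXO, without overlap. That sum was mainly miR-126a-3p, while for miR-126a-5p (log2 change 0.45) the groups overlapped and Control-EXO replicate 3 was highest at 888 CPM, above the 315 to 750 CPM of RIPC-EXO. The part of these sources in the results on the locus was not tested.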

How the data were processed

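Small RNA libraries from plasma exosomes were sequenced in 3 Control-EXO and 3 RIPC-EXO samples, grouped by their labels. The authors deposited raw counts of reads per mature rat miRNA and library, without normalization. The submitters' processing notes name bcl2fastq, BWA and the build rn6, while trimming, mismatch and multiple-match rules are not given in the sources used here. The table holds no coordinates, so positions and sequences are those of RefSeq in GRCr8.

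Members were found by name. The members and lists were chosen with earlier results of these data known. Counts of the whole table were filtered by filterByExpr (minimum count 10, minimum total count 15), scaled by TMM and tested by edgeR 4.0.16 (glmQLFit, glmQLFTest) in R 4.3.3, with Benjamini-Hochberg adjustment over all 404 miRNAs. SEs were derived from each fold change with its F statistic. The named miRNAs were those past an unadjusted p of 0.05, the 12 most abundant, the tested members with the largest positive and negative change, and both arms of hairpins with both tested. Results of members outside this rule are marked as named after their values were seen, and a few others are named for their sequence alone. Alternatives were RLE, upper quartile and library-size scaling, no filter, limma-voom (limma 3.58.1), the exact test of edgeR, DESeq2 1.42.0, a minimum of 10 counts per library, the replicate number as a block, the sum without miR-134-5p and each library left out. The script was tested on simulated data. Intervals are Wilson 95% and cover counting error only, and 3 counts were taken as the floor. Figures used Python 3.11.15 and matplotlib 3.10.9. Other experiments of the study are not analysed here.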

Additional observations from a re-analysis of the deposited data

How the results depend on the processing

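With all 6 libraries, the number of members past a fold of 2 and an unadjusted p of 0.05 was 6 by the reported fit (15.8% of members tested, beside 9.41% of all miRNAs), 1 with library size only (2.63% beside 8.17%), 8 with limma-voom (6 lower and 2 higher, 21.1% beside 12.1%), 5 with RLE (13.2% beside 9.16%), 7 with upper quartile scaling (18.4% beside 11.1%), 5 with at least 10 counts in every library (23.8% beside 11.6%), 5 with DESeq2 (13.2% beside 12.1%) and 6 with the exact test of edgeR (15.8% beside 11.1%). Without the filter on low counts the 5 called were 7.04% of the members, beside 10.5% of all. Leaving out each library gave from 0 to 21 members. It was 1 without Control-EXO replicate 1 (2.44% beside 3.52% of all), 0 without Control-EXO replicate 2 (beside 4.29%) and 21 without Control-EXO replicate 3 (52.5% beside 43.1%). Some of these 21 passed the filter only through the group where they were higher. Without RIPC-EXO replicates 1, 2 and 3 the number of members was 4 (10% beside 6.89%), 0 (beside 3.81%) and 1 (2.44% beside 3.52%). Members with an adjusted p under 0.05 numbered 0 with all 6 libraries in every setting and from 0 to 14 with a library left out, all 14 without Control-EXO replicate 3. Among the named miRNAs no fitted change turned sign with all 6 libraries. With a library left out, miR-434-3p ranged from -0.14 to 0.86 and was also -0.02 in another of these fits, miR-299b-3p from -0.059 to 0.81, miR-299a-3p from -0.073 to 0.76 and miR-136-3p from -0.12 to 1.71. The replicate numbers were not taken as pairs in the reported fit, since the groups are different rats and no pairing is stated. Deviations of same-numbered libraries correlated at 0.33, -0.28 and 0.28 (mean 0.111, against -0.066 for different numbers). So few values cannot tell whether libraries were handled in pairs. With the replicate block 5 members met the criterion, 4 lower (miR-127-3p, miR-485-5p, miR-541-5p and miR-434-5p) and 1 higher (miR-379-5p), or 13.2% of the members beside 9.41% of all. In the whole table the block gave 13 lower and 25 higher, against 30 lower and 8 higher by the reported fit. The cause of these changes was not tested.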

Other observations

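The locus also holds miRNAs outside the naming rule. The table had 16 such rows, 8 with a count and 8 at 0. Only miR-1247-3p was tested, at 7.17, 4.48 and 0.569 CPM in Control-EXO and 1.85, 0.431 and 1.06 CPM in RIPC-EXO. Control-EXO replicate 3 lay under the other controls and among the RIPC-EXO libraries, and the log2 change was -1.83 ± 0.94 with an adjusted p of 0.47 by the quasi-likelihood test of edgeR (Benjamini-Hochberg). miR-1247-3p was named after its values were seen. The other 15 together stayed at low counts.

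Of the remaining lists of miRNAs typical of other sources, platelets and leukocytes (4 of 4 with a count) summed to between 3553 and 21387 CPM in Control-EXO and between 11449 and 26861 CPM in RIPC-EXO. Liver (3 of 3) summed to between 79873 and 109260 CPM in Control-EXO and between 76444 and 81310 CPM in RIPC-EXO. Pancreas (3 of 3) summed to between 2340 and 5357 CPM in Control-EXO and between 1674 and 3035 CPM in RIPC-EXO. By the fold and p criterion, 2 miRNAs of the red cell list, 1 of endothelium and 1 of pancreas were higher in RIPC-EXO, and no miRNA of these lists was lower. That of pancreas, miR-217-5p, was at 5.38, 6.66 and 19.3 CPM in Control-EXO and at 19.8, 125 and 10.4 CPM in RIPC-EXO. Its groups overlapped, with RIPC-EXO replicate 2 far above the other libraries.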
